A study of Mus musculus with 8 samples.

Results

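The authors' deposited table of Spp1 knockout against wild-type astrocyte cultures holds 3624 genes. Of these, 70 carry names of G protein-coupled receptors, their accessory proteins or regulators of G protein signalling (RGS). They were found by gene name, with patterns for orphan and adhesion receptors, receptors of nucleotides, adenosine, lysophospholipids and peptides, and RGS proteins, while receptors for chemokines, amines, glutamate and prostaglandins were left out. The knockout cultures (KO, 4 samples) came from Spp1-/- mice of the strain B6.129S6(Cg)-Spp1tm1Blh/J, and the wild-type cultures (WT, 4 samples) from C57BL/6 mice. In both groups the cells were primary astrocytes of the retinas and optic nerves at postnatal day 1 to 3, grown in DMEM/F12 with serum. Spp1 encodes osteopontin, a secreted matrix phosphoprotein and cytokine. The comparison asks which transcripts differ when it is missing.

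A G protein-coupled receptor crosses the membrane several times and, when its ligand binds, makes a heterotrimeric G protein exchange GDP for GTP. The G protein then acts on enzymes such as adenylyl cyclase or phospholipase C, and RGS proteins end the signal by speeding up GTP hydrolysis on the alpha subunit. In nervous tissue these receptors carry signals among astrocytes, microglia, vessels and neurons: ATP and adenosine released by cells, lipids made from membranes, and neuropeptides.

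For each gene the table gives the normalized count averaged across the 8 samples, the log2 fold change (KO over WT), its standard error and Wald p-values. It has 0 columns of values per sample, so the spread between samples is seen only through the standard errors and the depth of each library is unknown. Only genes with an adjusted p of at most 0.0499 and a log2 fold change beyond 0.58 in either direction were kept, so every member below passed the authors' Wald test, and a receptor that is not named may have missed a limit or not been tested. The level of each group, its implied mean, follows from that average and the fold change if both groups weigh the same. The sign of the table was read from Spp1 itself, with an implied mean of 441 normalized counts in KO and 26271 in WT. Intervals are 95% intervals from the deposited standard errors. Separate cultures or animals are not stated in the labels, so the p-values reflect the spread among these 8 samples, part or all of which may be technical.

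Y-linked genes and several sets of cell type markers differed with genotype. Ddx3y, a gene of the Y chromosome, had an implied mean of 1605 in KO and 0.16 in WT, and the 4 Y-linked genes of the marker list were all higher in KO, as was Uba1y, with a log2 fold change of 6.50 in the authors' deposited table. Xist, the remaining gene of that marker list, was not listed in either direction. Of 20 macrophage and microglia markers 19 were listed and all 19 were higher, by 0.91 to 4.36 on the log2 scale in the authors' deposited table, with implied means that summed to 202375 in KO and 42509 in WT. Of 18 oligodendrocyte and Schwann cell markers 15 were listed and all were lower, with summed implied means of 6545 in KO and 24966 in WT, and 10 of 18 neuron markers were listed, all lower. The astrocyte marker Gfap had implied means of 91923 in KO and 58315 in WT, and of 16 astrocyte markers 4 were listed as higher and 3 as lower. Of 14 endothelial markers 3 were higher and 2 lower, of 16 fibroblast and meningeal markers 9 were higher and 2 lower, and of 13 pericyte and smooth muscle markers 2 were higher and 4 lower. Of 13 markers of lymphocytes, mast cells and granulocytes only Kit was listed, as higher. In RNA from whole cultures, more cells of a type and more RNA per cell cannot be told apart, and neither sex nor the strain background of the knockout can be told apart from genotype for any gene below.

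Of the 70 members 45 were higher and 25 lower in KO (64.3% higher), where 54.9% of all listed genes were higher and 45.1% lower. Neither a receptor nor an RGS protein are 6 members: Ramp1, Ramp2, Agtrap, Rgs7bp, Gpr137c and the pseudogene Gpr137b-ps. Without them 41 members were higher and 23 lower. The members' median log2 fold change was 1.02 in the authors' deposited table, against 0.66 over all listed genes. A change of at least 2-fold was listed for 50 members, 36 higher and 14 lower, where 58% of all listed genes passed this limit, 35.5% as higher and 22.5% as lower. The annotation holds 231 protein-coding genes with such names, and 68 of the members are among them. The adjusted and raw p-values of 20 genes put the number of genes tested at about 16600, so about 21.8% of all tested genes were listed. How many of the 231 were tested is not known. The families were listed to different extents: 11 of 23 Rgs genes and 7 of 9 P2ry genes, but 6 of 27 Adgr genes, 1 of 20 Mrgpr genes, 1 of 7 Fpr genes and 0 of the 4 Hrh, 4 Rxfp and 3 Galr genes. Mean normalized counts of the members ran between 8.05 for S1pr5 and 6760 for S1pr3, with a median of 167.

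**Figure D1:**
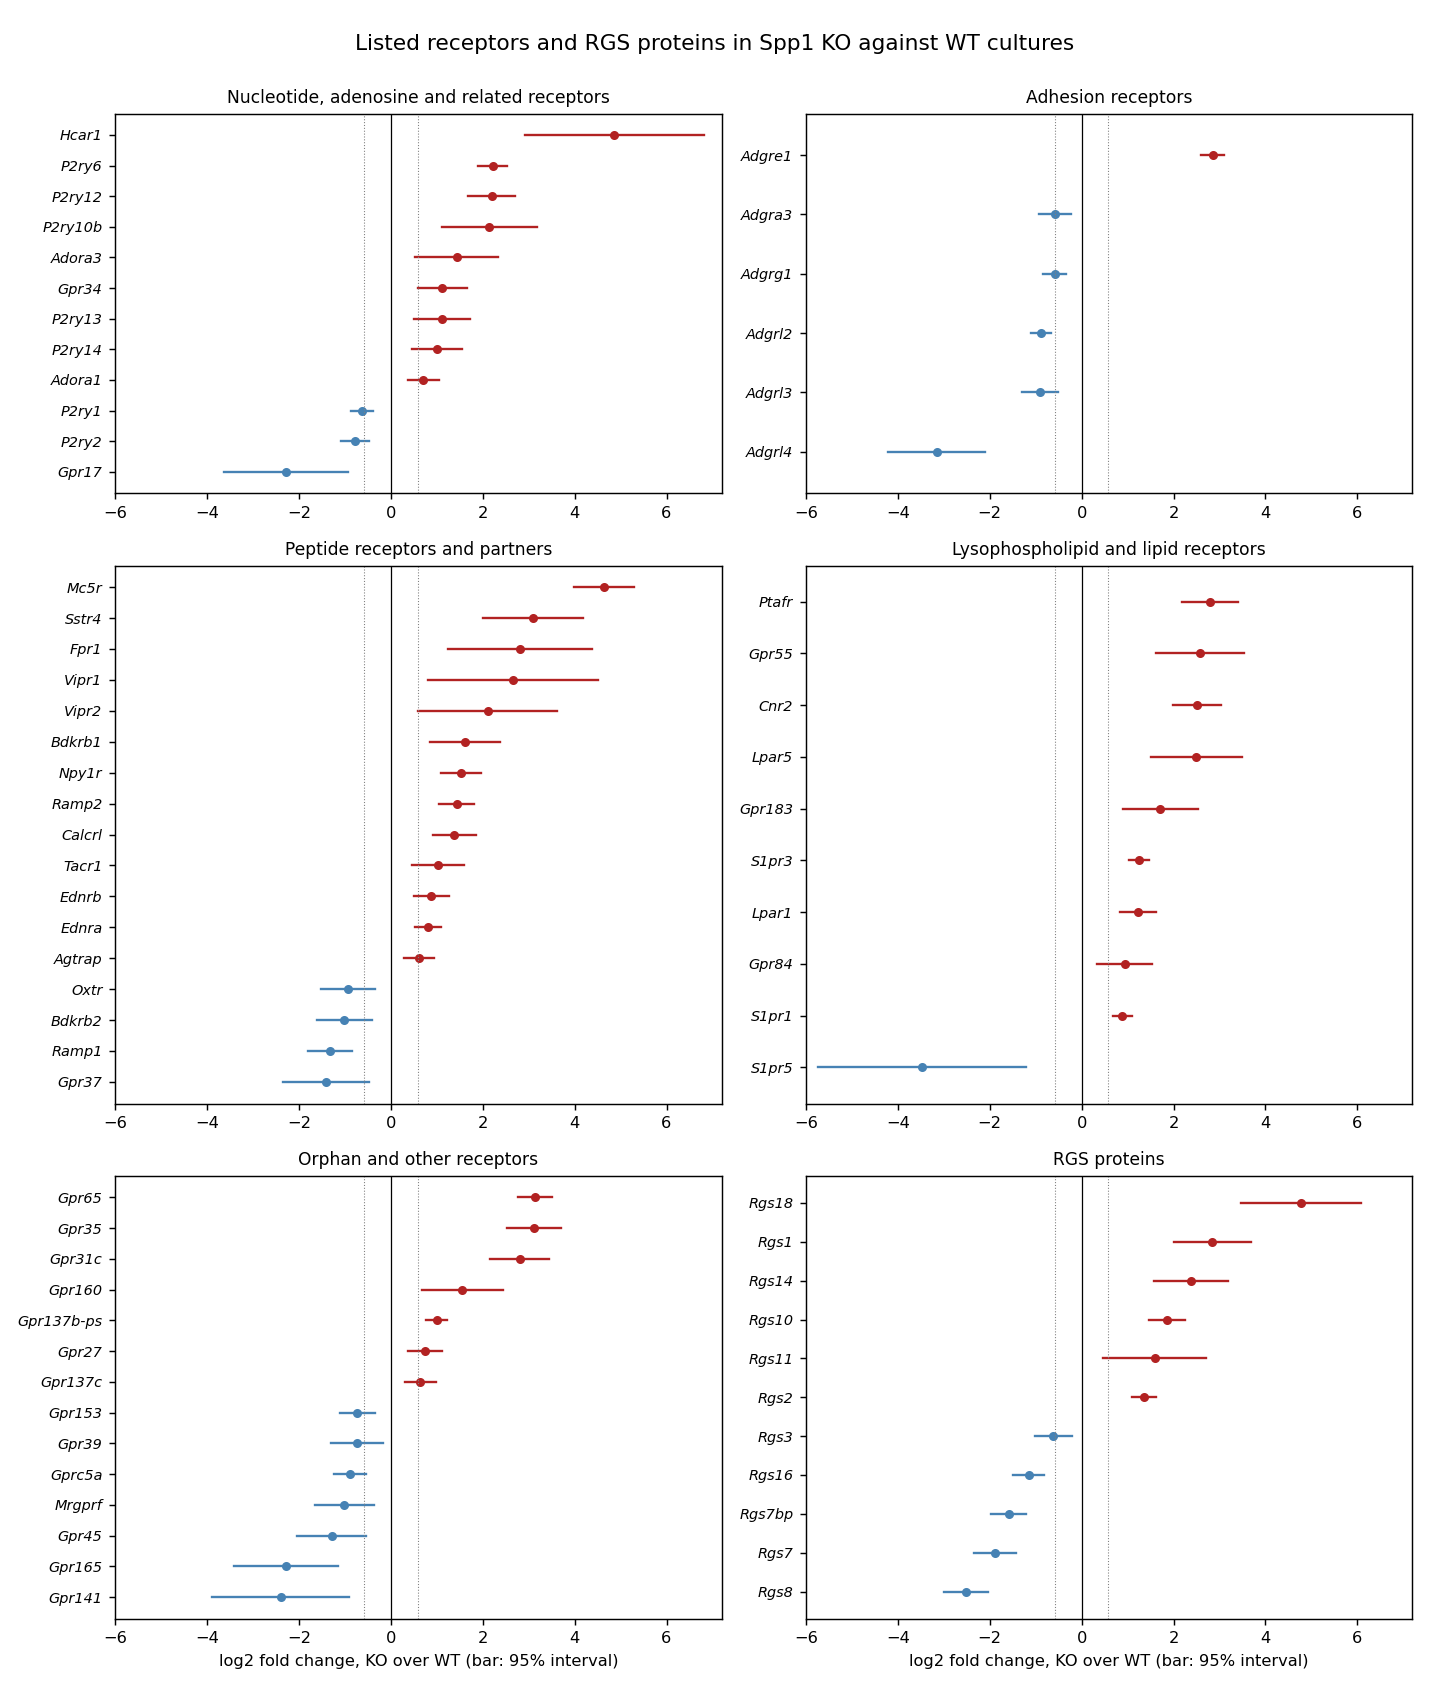
Log2 fold change of each of the 70 members, KO over WT, in 6 role groups; points are the deposited values, bars 95% intervals from the deposited standard errors, dotted lines the fold limit of 0.58 on either side of 0. Red members are higher and blue members lower in KO, and lipid receptors lie on the right but for S1pr5, while adhesion receptors lie on the left but for Adgre1.

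**Figure D2:**
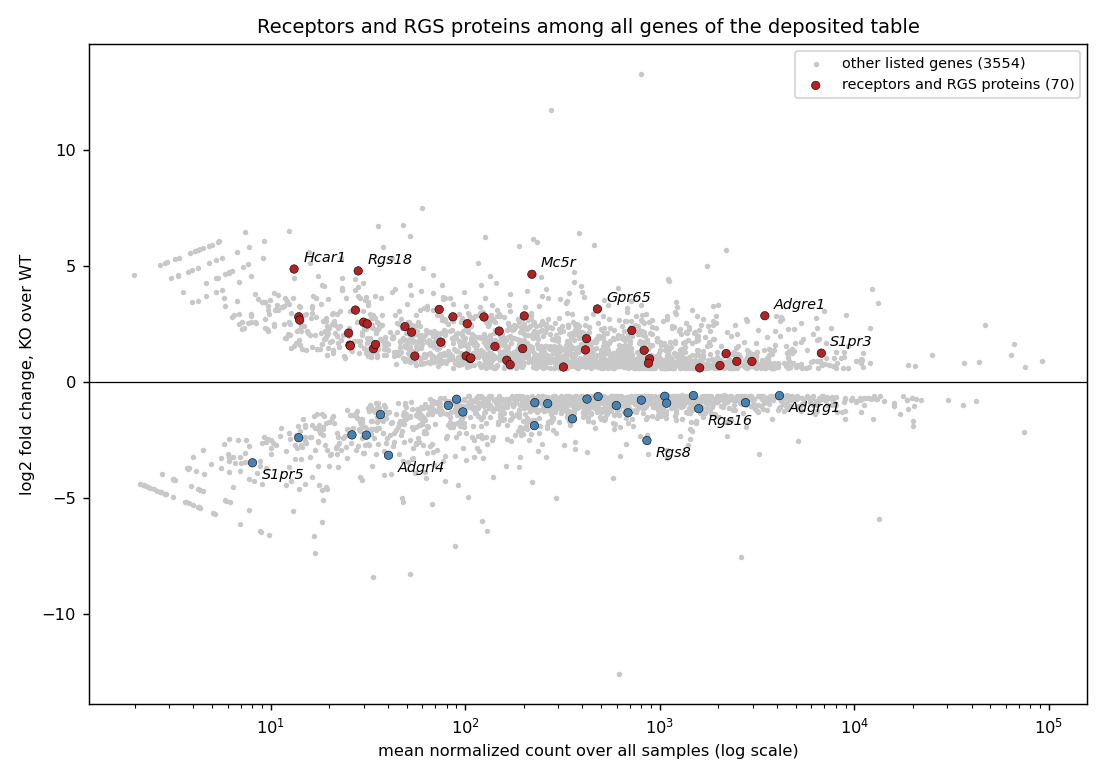
Log2 fold change, KO over WT, against mean normalized count (log scale) for every gene of the deposited table, with the 70 members in colour over the other genes in grey. The gap around 0 is the fold limit of the table, and the largest changes of members, such as Hcar1 and Rgs18, sit at low counts, whereas Adgre1 and Gpr65 combine large changes with counts of 3462 and 477.

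Adhesion receptors, which pair a long extracellular region with the membrane-spanning domain, were listed for 6 of 27 annotated genes, of which 5 fell and 1 rose, where 45.1% of all listed genes were lower. The member that rose was Adgre1, which encodes a classical surface antigen of macrophages and lies on chromosome 17 at 57358691 to 57483527 (GRCm38, plus strand). Its implied mean was 6081 in KO and 843 in WT, a 7.22-fold higher level (95% interval 6.04 to 8.63). With a log2 fold change of 2.85, a standard error of 0.13 and an adjusted p of 2.3e-101, Adgre1 had the smallest adjusted p of all members in the authors' deposited table. All 19 listed macrophage markers moved in the same direction, and their part in this value was not tested.

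The falling adhesion receptors were abundant genes with modest changes, except for Adgrl4. Adgrg1 (GPR56), a receptor of neural and oligodendrocyte precursors, had implied means of 3293 in KO and 4943 in WT, a log2 fold change of -0.59 (standard error 0.13, adjusted p = 3.2e-05 in the authors' deposited table). The latrophilin Adgrl2, a receptor that binds partners across synapses, had 1933 in KO and 3576 in WT, with a log2 fold change of -0.89 (0.11, adjusted p = 2.8e-13 in the authors' deposited table). Another latrophilin, Adgrl3, stood at -0.91 (0.20) and Adgra3 at -0.58 (0.18), which is the smallest change of any member in the authors' deposited table. Adgrl4 (ELTD1), known from endothelial cells, had implied means of 8.13 in KO and 72.4 in WT. Its log2 fold change of -3.15 (0.54, adjusted p = 7.0e-08) was the largest fall among the adhesion receptors of the authors' deposited table. Endothelial markers did not move one way: Esam was lower, with a log2 fold change of -3.96, and Kdr higher, with 2.08, in the authors' deposited table.

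Receptors for nucleotides, adenosine and related small ligands gave 9 higher and 3 lower members, where 54.9% of all listed genes were higher. Of the 9 annotated P2ry genes 7 were listed, 5 of them higher. P2ry6, a receptor for UDP that microglia use in phagocytosis, had implied means of 1180 in KO and 254 in WT, a 4.64-fold higher level (95% interval 3.73 to 5.78; log2 fold change 2.22, standard error 0.16, adjusted p = 4.2e-41 in the authors' deposited table). P2ry12, the ADP receptor that marks resting microglia, had 245 in KO and 53.6 in WT, with a log2 fold change of 2.19 (0.26, adjusted p = 7.0e-16 in the authors' deposited table). Its exons share bases with Med12l in the annotation, and Med12l was not listed.

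Smaller rises were listed for P2ry13, another ADP receptor, at 1.11 (0.31), and for P2ry14, which responds to UDP-glucose, at 1.01 (0.28), in the authors' deposited table. P2ry10b, which has a close copy in P2ry10, stood at 2.14 (0.53), and Gpr34, a lysophosphatidylserine receptor of microglia, at 1.12 (0.27) in the authors' deposited table. The members that fell were P2ry1, an ADP receptor that raises calcium in astrocytes, and P2ry2, a receptor for ATP and UTP. P2ry1 had implied means of 379 in KO and 584 in WT, with a log2 fold change of -0.62 (0.12, adjusted p = 1.8e-06 in the authors' deposited table). P2ry2 had 591 in KO and 1015 in WT, with -0.78 (0.16, adjusted p = 5.3e-06 in the authors' deposited table). ADP receptors therefore split, with P2ry12 and P2ry13 higher and P2ry1 lower. The 95% interval of P2ry12 starts at 1.69 and that of P2ry1 ends at -0.39, and listed members of opposite direction are always apart in this way.

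The adenosine receptors Adora1 and Adora3 were listed out of 4 annotated ones. Adora1, which couples to inhibitory G proteins and is abundant in brain, had implied means of 2525 in KO and 1545 in WT, with a log2 fold change of 0.71 (0.17) in the authors' deposited table, and shares exon bases with Mybph, which was not listed. Adora3 stood at 1.44 (0.46) with 49.3 in KO and 18.2 in WT, and shares exon bases with Tmigd3, which was not listed in the authors' deposited table. Hcar1, the lactate receptor, showed the largest rise of any member, with an implied mean of 25.5 in KO and 0.88 in WT. Its log2 fold change was 4.86 (1.00, adjusted p = 1.1e-05 in the authors' deposited table), with a 95% interval of 2.91 to 6.81, and since the WT mean lies under 3 counts the size rests on few reads. Gpr17, an orphan receptor related to the P2Y family that marks committed oligodendrocyte precursors, had 8.93 in KO and 43.3 in WT. Its log2 fold change was -2.28 (0.69, adjusted p = 0.0051 in the authors' deposited table). The oligodendrocyte markers were lower too, and Gpr17 shares exon bases with Lims2, itself listed at -1.14 in the authors' deposited table.

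Some enzymes that act on nucleotide ligands were in the table, and those named here were chosen after their values were seen. The ectonucleotidases Entpd1, Entpd2 and Entpd3, which strip phosphates from ATP and ADP, had log2 fold changes of 0.62, 1.20 and 3.59, and Nt5e (CD73), which turns AMP into adenosine, had 0.85, in the authors' deposited table. Ada and Adk, which remove adenosine and were on the same list of ligand genes, were not listed. Entpd3 was scarce, with implied means of 24.1 in KO and 1.99 in WT.

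Of the 10 members grouped as lipid receptors 9 rose and 1 fell, where 54.9% of all listed genes were higher. Gpr34 was counted with the nucleotide receptors above. S1pr3, a sphingosine-1-phosphate receptor, was the most abundant member by count, with implied means of 9501 in KO and 4019 in WT. It was 2.36-fold higher (95% interval 2.03 to 2.76), with a log2 fold change of 1.24 (0.11, adjusted p = 2.3e-26 in the authors' deposited table). S1pr1, a receptor of the same family found on lymphocytes and endothelium, had 3224 in KO and 1743 in WT, with 0.89 (0.11, adjusted p = 1.7e-15 in the authors' deposited table). S1pr5, which in brain belongs to oligodendrocytes, went the other way, with 1.33 in KO and 14.8 in WT. Its log2 fold change of -3.48 (1.16, adjusted p = 0.012) was the largest fall of any member in the authors' deposited table. The KO mean lies under 3 counts, and the 95% interval ran from -5.75 to -1.21. Sphk1, a kinase that makes sphingosine-1-phosphate, was lower, with a log2 fold change of -1.26 (0.25) in the authors' deposited table.

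Among receptors for lysophosphatidic acid, Lpar1 had implied means of 3070 in KO and 1313 in WT, with a log2 fold change of 1.23 (0.20) in the authors' deposited table. Lpar5, a member of the family found on microglia, stood at 2.50 (0.51), with 53.2 in KO and 9.41 in WT, in the authors' deposited table. Plpp1, a phosphatase that degrades such lipids, had a log2 fold change of -1.21 (0.18, adjusted p = 3.2e-10) in the authors' deposited table.

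The other lipid receptors are known from immune cells, and all were higher. Ptafr, the receptor for platelet-activating factor, had implied means of 218 in KO and 31.3 in WT, with a log2 fold change of 2.80 (0.31, adjusted p = 7.1e-18 in the authors' deposited table). Cnr2, the cannabinoid receptor of immune cells, had 174 in KO and 30.5 in WT, with 2.51 (0.26, adjusted p = 1.2e-19 in the authors' deposited table). Gpr55, a lysophosphatidylinositol receptor, stood at 2.57 (0.49), Gpr183, which follows oxysterols, at 1.71 (0.42), and Gpr84, a receptor for medium-chain fatty acids, at 0.94 (0.30) in the authors' deposited table. Gpr55 shares exon bases with 4933407L21Rik, itself listed at 1.52 in the authors' deposited table. Of the enzymes of platelet-activating factor, named after their values were seen, Lpcat2, which makes it, stood at 1.04 (0.16), and Pla2g7, which breaks it down, stood at 1.61 (0.16, adjusted p = 7.9e-23) in the authors' deposited table. How far the higher macrophage markers bear on these values was not tested.

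Peptide receptors and their partners gave 13 higher and 4 lower members, where 54.9% of all listed genes were higher. Mc5r, a melanocortin receptor best known from exocrine glands, had implied means of 423 in KO and 17.0 in WT, a 24.8-fold higher level (95% interval 15.8 to 39.0). With a log2 fold change of 4.63 (0.33, adjusted p = 3.4e-42), it had the largest rise among members with a mean count of at least 100 in the authors' deposited table. Npy1r, a receptor for neuropeptide Y, had 211 in KO and 73.0 in WT, with 1.53 (0.22, adjusted p = 7.2e-11 in the authors' deposited table). Sstr4, a somatostatin receptor, stood at 3.09 (0.56), Fpr1, the formyl peptide receptor of phagocytes, at 2.80 (0.80), and Tacr1, the substance P receptor, at 1.03 (0.29) in the authors' deposited table.

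Both endothelin receptors were higher. Ednrb, abundant in astrocytes, had implied means of 3854 in KO and 2089 in WT, with a log2 fold change of 0.88 (0.19) in the authors' deposited table. Ednra had 1112 in KO and 635 in WT, with 0.81 (0.14) in the authors' deposited table. Their ligands split: the endothelin gene Edn1 was lower, at -1.12 (0.30), and Edn3 higher, at 0.86 (0.33), in the authors' deposited table. Both receptors of vasoactive intestinal peptide were higher at low counts, Vipr1 at 2.67 (0.94) and Vipr2 at 2.10 (0.77) in the authors' deposited table. The gene of the peptide, Vip, was listed as lower, with implied means of 0.195 in KO and 4.80 in WT.

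The receptor Calcrl and its partners did not move together. Calcrl needs a RAMP protein at the membrane: with RAMP1 it binds the peptide CGRP, and with RAMP2 it binds adrenomedullin. Calcrl had implied means of 598 in KO and 230 in WT, with a log2 fold change of 1.38 (0.24, adjusted p = 8.7e-08 in the authors' deposited table). Ramp2 had 288 in KO and 106 in WT, with 1.44 (0.20, adjusted p = 4.2e-12 in the authors' deposited table), and shares exon bases with Vps25, which was not listed. Ramp1 was lower, with 391 in KO and 980 in WT, and a log2 fold change of -1.32 (0.24, adjusted p = 5.0e-07 in the authors' deposited table). Thus per kilobase of transcript the implied mean of Ramp1 was 168 in KO and 422 in WT, and that of Ramp2 195 in KO and 72.0 in WT. Both ligand genes were lower, Calca (CGRP) at -2.26 (0.89) and Adm (adrenomedullin) at -0.97 (0.20) in the authors' deposited table.

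The bradykinin receptors also split. Bdkrb1, the form induced by injury and inflammation, had implied means of 52.1 in KO and 17.0 in WT, with a log2 fold change of 1.61 (0.39) in the authors' deposited table. Bdkrb2, the constitutive form, had 396 in KO and 798 in WT, with -1.01 (0.30) in the authors' deposited table. The kininogen genes, from which bradykinin is cut, were higher, Kng1 at 3.89 (0.50, adjusted p = 1.9e-13) and Kng2 at 3.44 (0.73) in the authors' deposited table, and since they are paralogs, reads may have been divided between them. Ace, the peptidase that degrades bradykinin and makes angiotensin II, had implied means of 668 in KO and 2210 in WT, with a log2 fold change of -1.73 (0.16, adjusted p = 3.0e-24 in the authors' deposited table). Agtrap, a protein that binds the angiotensin receptor and is no receptor itself, stood at 0.61 (0.17) in the authors' deposited table.

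Oxtr, the oxytocin receptor, had implied means of 182 in KO and 347 in WT, with a log2 fold change of -0.93 (0.30) in the authors' deposited table. Gpr37, a receptor of myelinating glia, had 20.1 in KO and 53.1 in WT, with -1.40 (0.48, adjusted p = 0.014 in the authors' deposited table). Psap, whose product prosaposin has been described as a Gpr37 ligand, was higher, at 0.82 (0.15) in the authors' deposited table.

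Orphan and other receptors were evenly divided, 7 higher and 7 lower, where 54.9% of all listed genes were higher. Gpr65, a proton sensor of immune cells, had implied means of 857 in KO and 97.0 in WT, an 8.84-fold higher level (95% interval 6.83 to 11.4; log2 fold change 3.14, standard error 0.19, adjusted p = 3.5e-59 in the authors' deposited table). Gpr35, found on gut and immune cells, had 132 in KO and 15.1 in WT, with 3.12 (0.30, adjusted p = 8.5e-24 in the authors' deposited table). Gpr31c had 151 in KO and 21.6 in WT, with 2.81 (0.33, adjusted p = 2.3e-16 in the authors' deposited table), and its close copies make the assignment of reads uncertain. Gpr137b-ps, a transcribed pseudogene close in sequence to Gpr137b, had 1180 in KO and 590 in WT, with 1.00 (0.12, adjusted p = 2.4e-16 in the authors' deposited table), and is uncertain for the same reason. Gpr160 stood at 1.56 (0.45), Gpr27 at 0.75 (0.19) and Gpr137c, which shares exon bases with Txndc16, at 0.64 (0.17) in the authors' deposited table.

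The orphan receptors that fell had low or middling counts. Gpr141 had the lowest value of the group, with implied means of 4.43 in KO and 23.4 in WT and a log2 fold change of -2.40 (0.76, adjusted p = 0.0078 in the authors' deposited table). Gpr165 stood at -2.29 (0.58), Gpr45 at -1.29 (0.38) and Mrgprf at -1.01 (0.33) in the authors' deposited table. Gprc5a, a receptor gene induced by retinoic acid, stood at -0.89 (0.18), Gpr153 at -0.73 (0.19) and the zinc sensor Gpr39 at -0.74 (0.29) in the authors' deposited table. Gpr39 shares exon bases with Lypd1, itself listed at -1.41 in the authors' deposited table.

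Rgs genes were listed for 11 of 23 annotated names, among them the binding protein Rgs7bp, where about 21.8% of all tested genes were listed. Of these 6 were higher and 5 lower, where 54.9% of all listed genes were higher. At least 2-fold changes were listed for 10 of the 11, against 58% of all listed genes. Rgs18, known from platelets and myeloid cells, had implied means of 54.3 in KO and 1.97 in WT. Its log2 fold change was 4.78 (0.67, adjusted p = 1.5e-11 in the authors' deposited table), with a 95% interval of 3.48 to 6.09, and the WT mean lies under 3 counts. Rgs10, abundant in microglia, had 658 in KO and 181 in WT, with 1.87 (0.20, adjusted p = 3.8e-19 in the authors' deposited table). Rgs2, which acts mainly on Gq, had 1196 in KO and 465 in WT, a 2.57-fold higher level (95% interval 2.14 to 3.09; log2 fold change 1.36, standard error 0.13, adjusted p = 1.6e-22 in the authors' deposited table). Rgs1, an RGS protein of leukocytes, stood at 2.84 (0.43), Rgs14 at 2.38 (0.41) and Rgs11, which shares exon bases with Arhgdig, at 1.59 (0.57) in the authors' deposited table.

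The Rgs genes that fell are known from neurons or from many tissues. Rgs8, an RGS protein of neurons, had implied means of 255 in KO and 1460 in WT, a 5.73-fold lower level (95% interval 4.14 to 7.93; log2 fold change -2.52, standard error 0.24, adjusted p = 4.9e-24 in the authors' deposited table). Rgs7, a neuronal regulator that works in complex with the G protein subunit Gnb5, had 96.8 in KO and 356 in WT, with -1.88 (0.23, adjusted p = 1.9e-14 in the authors' deposited table). Rgs7bp, the anchor that carries Rgs7 complexes to the membrane, was lower alongside it, with 178 in KO and 533 in WT, and a log2 fold change of -1.59 (0.19, adjusted p = 9.0e-15 in the authors' deposited table). Rgs16 had 984 in KO and 2182 in WT, with -1.15 (0.17, adjusted p = 5.6e-10 in the authors' deposited table), and Rgs3 stood at -0.61 (0.21). By subfamily, the small R4 proteins gave 3 higher (Rgs1, Rgs2 and Rgs18) and 3 lower (Rgs3, Rgs8 and Rgs16), the R12 proteins Rgs10 and Rgs14 were both higher, and of the R7 proteins Rgs11 was higher and Rgs7 lower. The neuron markers were lower beside Rgs7 and Rgs8, and the macrophage markers higher beside Rgs1, Rgs10 and Rgs18. Against the fall of the neuron markers, Rgs11, an R7 protein like Rgs7, and Rgs14 were higher, at 1.59 and 2.38. The part of either marker set in these values was not tested.

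Several members lie next to each other in the genome, and 7 pairs were within 1 Mb, of which 5 moved in the same direction and 2 in opposite directions. Since 64.3% of the members were higher, a shared direction is frequent among any pairs of members. The share among neighbouring pairs of all listed genes was not computed. On chromosome 3, P2ry12 (59216272 to 59262871), P2ry13 (59207892 to 59210882) and P2ry14 (59113855 to 59153618) all rose. On chromosome 1, Rgs2, Rgs1 and Rgs18 all rose, in a stretch from 143999338 to 144775435 in GRCm38. Further along chromosome 1, Rgs8 (153653025 to 153700323) and Rgs16 (153740349 to 153745468), with 40.0 kb and 0 coding genes between them, both fell. The opposite pairs were P2ry6 and P2ry2 on chromosome 7, 21.9 kb apart, and Bdkrb2 and Bdkrb1 on chromosome 12, 7.85 kb apart, each with 0 coding genes between. In both pairs the 95% intervals of the neighbours do not overlap. That follows from their opposite directions alone, since no member's interval crossed 0. Close copies within a family can exchange reads in counting, which the sources used here do not describe. On the chromosome of Spp1 lie 3 members, Adgra3, Adgrl3 and Hcar1, the nearest 19.4 Mb away.

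**Figure D3:**
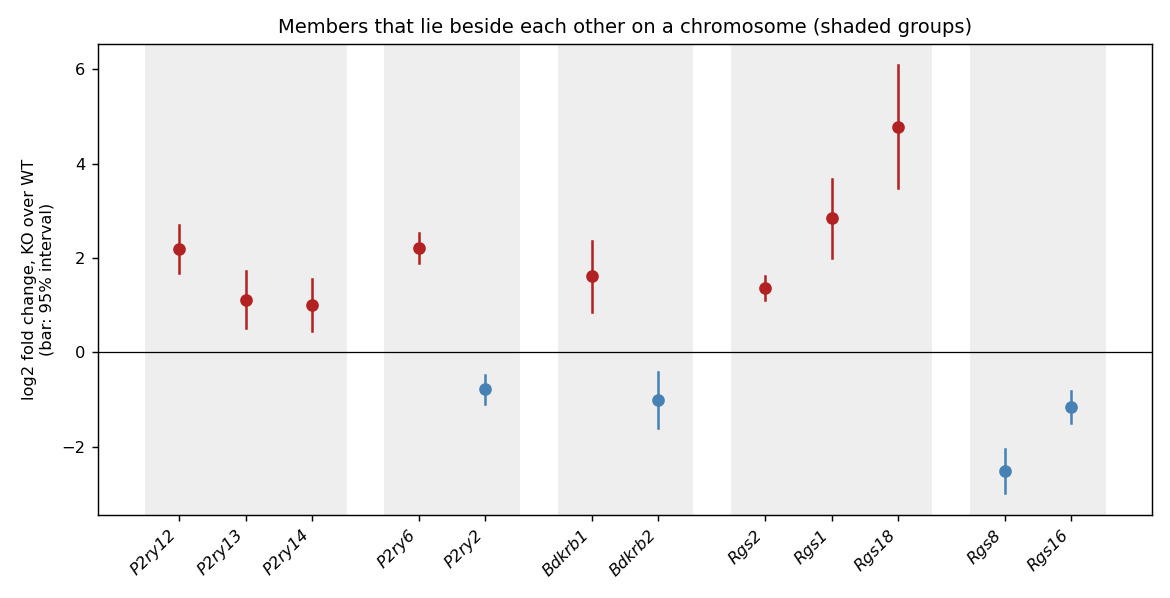
Log2 fold change, KO over WT, of neighbouring members in 5 groups (shaded), with 95% intervals from the deposited standard errors. The 3 P2ry genes of chromosome 3 and the group of Rgs2, Rgs1 and Rgs18 lie above 0, Rgs8 and Rgs16 below 0, and P2ry6 with P2ry2 and Bdkrb1 with Bdkrb2 on both sides.

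For the neighbours that moved together, the 250 bases before the RefSeq transcription start are shown where the RefSeq table (GRCm38.p6) holds them, so that their letters can be compared. Capitals mark GAGGAA on either strand, read as GAGGAA or TTCCTC, a sequence that the myeloid factor PU.1 can bind. The windows are chr3:59262986-59263235 for P2ry12, chr3:59210883-59211132 for P2ry13 and chr3:59153493-59153742 for P2ry14, all on the minus strand, and chr1:153652787-153653036 for Rgs8 and chr1:153740103-153740352 for Rgs16, on the plus strand. P2ry14 has 4 and Rgs8 has 3 starts in the table, of which the first is shown.
P2ry12: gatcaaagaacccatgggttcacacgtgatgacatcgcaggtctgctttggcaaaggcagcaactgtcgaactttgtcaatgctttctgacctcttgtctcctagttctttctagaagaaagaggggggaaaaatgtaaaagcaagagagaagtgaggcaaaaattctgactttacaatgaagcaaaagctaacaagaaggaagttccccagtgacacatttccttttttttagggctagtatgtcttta
P2ry13: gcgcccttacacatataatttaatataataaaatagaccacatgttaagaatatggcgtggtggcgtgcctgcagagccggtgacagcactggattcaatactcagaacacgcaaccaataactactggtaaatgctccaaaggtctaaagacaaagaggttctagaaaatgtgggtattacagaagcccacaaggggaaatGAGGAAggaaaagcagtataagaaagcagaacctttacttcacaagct
P2ry14: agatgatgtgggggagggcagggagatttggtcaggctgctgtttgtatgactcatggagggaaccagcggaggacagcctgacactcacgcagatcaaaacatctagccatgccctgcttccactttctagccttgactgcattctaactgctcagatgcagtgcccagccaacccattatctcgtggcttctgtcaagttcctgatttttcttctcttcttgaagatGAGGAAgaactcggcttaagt
Rgs8: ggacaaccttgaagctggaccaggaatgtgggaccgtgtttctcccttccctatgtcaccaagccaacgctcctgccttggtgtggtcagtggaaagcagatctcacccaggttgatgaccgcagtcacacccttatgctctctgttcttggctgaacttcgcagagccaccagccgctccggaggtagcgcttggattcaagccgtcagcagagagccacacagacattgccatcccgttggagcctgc
Rgs16: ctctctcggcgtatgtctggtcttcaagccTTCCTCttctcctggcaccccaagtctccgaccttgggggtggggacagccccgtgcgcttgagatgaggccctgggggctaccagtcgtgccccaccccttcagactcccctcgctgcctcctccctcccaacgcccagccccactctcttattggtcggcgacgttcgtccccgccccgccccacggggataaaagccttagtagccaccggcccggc

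The sequence GAGGAA was found in the windows of P2ry13, P2ry14 and Rgs16, and not in those of P2ry12 and Rgs8. Only this exact string was searched, on both strands, so shorter or variant PU.1 sites in any window were not sought. A window was available for 31 of the 45 members higher in KO and for 22 of the 25 lower ones. Over all members with a window GAGGAA was present in 12 of 31 that were higher in KO (38.7%) and in 4 of 22 that were lower (18.2%). Among all 27025 genes with a window, 23.1% held it, and windows on chromosome 18 were left out throughout. These are matches of 6 letters and describe the windows only. The windows of P2ry12, P2ry13 and P2ry14 had 41.6%, 41.6% and 50.0% G and C, and those of Rgs8 and Rgs16 57.2% and 66.4%.

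Levels between genes were compared per kilobase of the longest annotated transcript, as implied mean normalized counts per kb. In KO the highest levels were those of S1pr3 (2129), Adgre1 (1878) and S1pr1 (1058), and in WT those of Adgrg1 (1367), Rgs16 (933) and S1pr3 (901). Adgre1 stood at 1878 per kb in KO and 260 in WT, and Rgs10 at 748 in KO and 205 in WT. Ednrb, abundant in astrocytes, stood at 938 per kb in KO and 509 in WT. At the low end were S1pr5, with 0.53 per kb in KO and 5.91 in WT, and Hcar1, with 7.75 in KO and 0.27 in WT. These levels carry no error of their own.

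**Figure D4:**
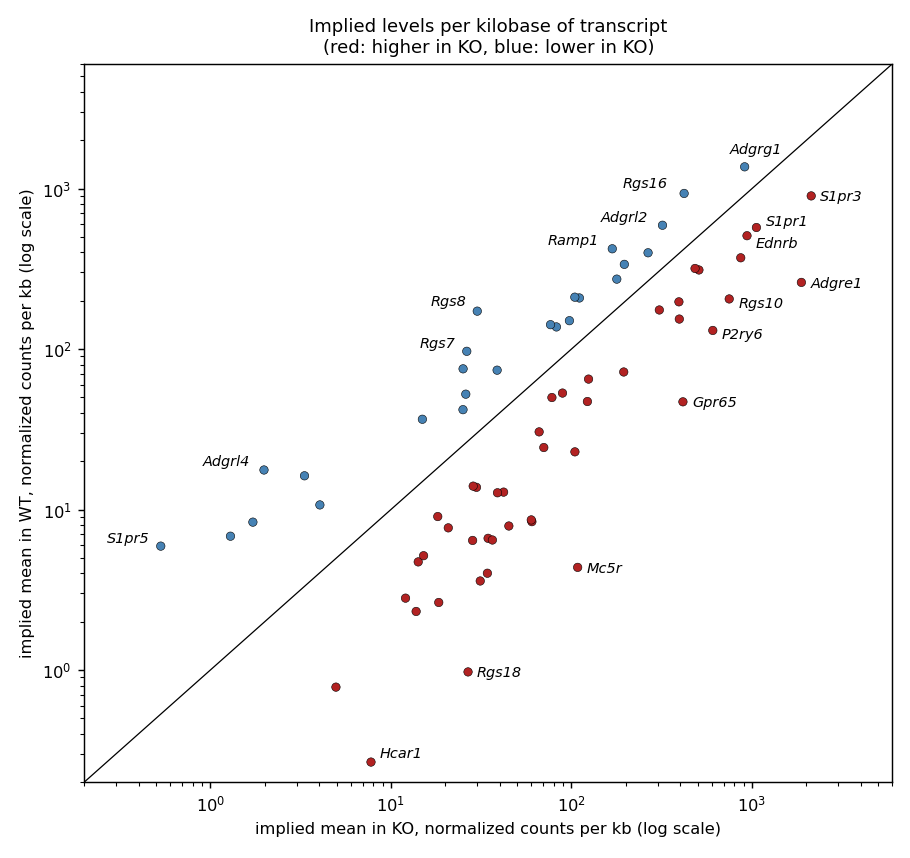
Implied mean normalized counts per kilobase in KO (x axis, log scale) against WT (y axis, log scale) for the 69 members found in the annotation; the line marks equal levels, red points are higher and blue points lower in KO. Adgre1 lies far below the line at 1878 in KO and 260 in WT, and Rgs8 far above it at 30.1 in KO and 172 in WT.

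The genes around the receptors were read from 5 lists with 159 genes, of which 48 were listed, 30 higher and 18 lower (62.5% higher). About 21.8% of all tested genes were listed, and 54.9% of all listed genes were higher. These shares also apply beside the counts of each list below, and how many of the 159 were tested is not known. Of 32 heterotrimeric G protein subunits 3 were higher and 5 lower. Gna15, an alpha subunit of the Gq class found in blood cells, had implied means of 215 in KO and 54.0 in WT, with a log2 fold change of 1.99 (0.26, adjusted p = 5.5e-13), and the gamma subunit Gngt2 stood at 2.15 (0.44), in the authors' deposited table. The beta subunit Gnb4 was lower, at -1.13 (0.24), as was the neuronal gamma subunit Gng3, at -1.09 (0.26), in the authors' deposited table.

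In the cAMP arm 6 of 32 genes were higher and 2 lower. The adenylyl cyclases split: Adcy1, a calcium-stimulated form of neurons, had implied means of 258 in KO and 993 in WT, with a log2 fold change of -1.94 (0.16, adjusted p = 4.1e-30 in the authors' deposited table). Adcy7 had 2014 in KO and 902 in WT, with 1.16 (0.13, adjusted p = 1.6e-18), and Adcy5 stood at 1.28 (0.14, adjusted p = 2.1e-18), in the authors' deposited table. Pde7b, a cAMP phosphodiesterase, was higher, at 2.02 (0.24), in the authors' deposited table.

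In the phospholipase C arm 5 of 13 genes were higher and 1 lower. Plcb2, the isoform of blood cells, had implied means of 31.4 in KO and 2.60 in WT, with a log2 fold change of 3.59 (0.72), while Plcb1, the neuronal isoform, stood at -0.67 (0.15), in the authors' deposited table. Prkch (2.44, 0.22), Prkcb (1.88, 0.19) and Prkcq (0.93, 0.19), which encode protein kinases C, were higher in the authors' deposited table. Among receptor kinases, arrestins and other modulators 3 of 19 were higher and 1 lower: the arrestins Arrb1 and Arrb2, which switch off and internalize receptors, stood at 1.68 (0.22) and 1.496 (0.19), Gpsm3 at 1.41 (0.36) and the kinase Grk6 at -0.79 (0.16) in the authors' deposited table. Of 63 ligands and ligand enzymes 13 were higher and 9 lower.

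**Figure D5:**
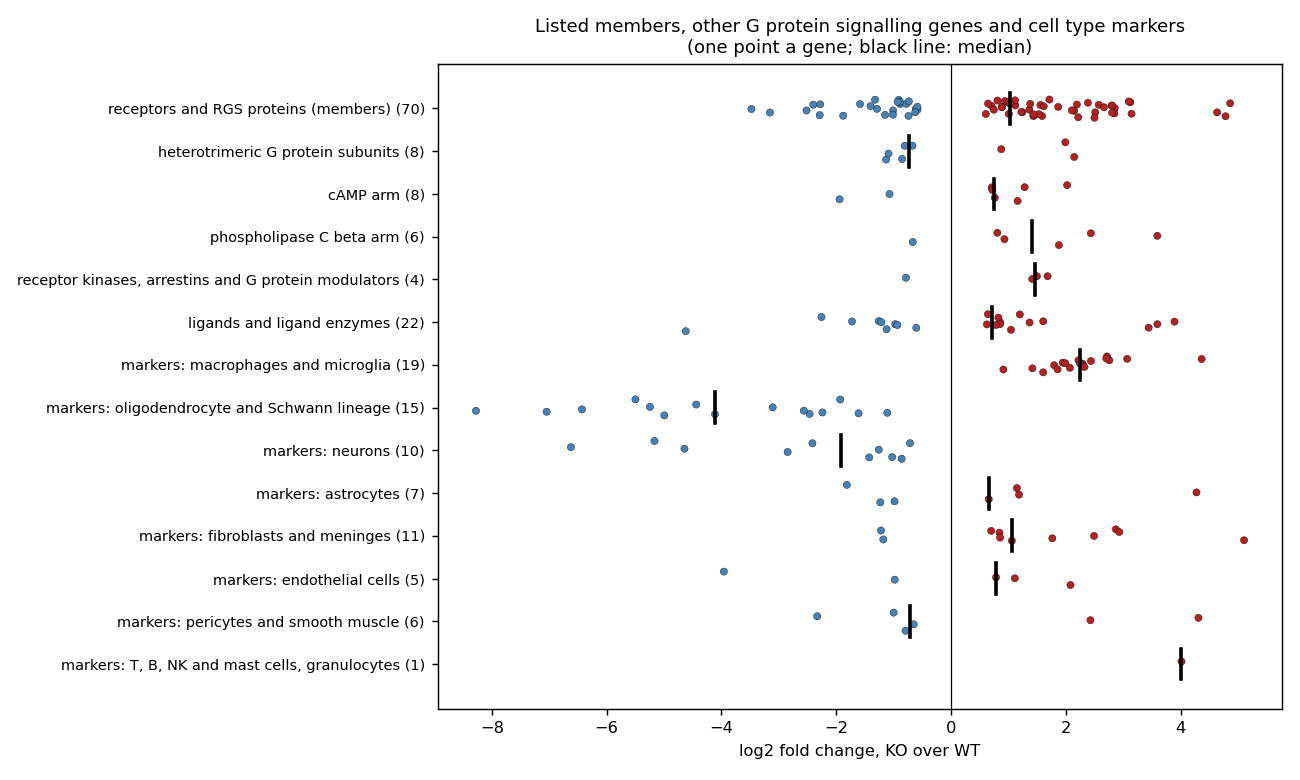
Log2 fold change, KO over WT, of the 70 members, of other G protein signalling genes in 5 lists and of cell type markers in 8 lists, 1 point a gene, with the number listed in brackets and a black line at the median. The members spread on both sides of 0 with a median of 1.02, macrophage markers lie to the right with a median of 2.25 and oligodendrocyte and Schwann cell markers to the left with a median of -4.11.

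The precision differed between members. The median standard error of the log2 fold change was 0.28 over the members and 0.24 over all listed genes, and it was 0.51 for the 27 members with a mean count under 100 and 0.17 for the 13 with a mean of at least 1000. For 44 of the 70 members the 95% interval lay wholly beyond the fold limit of 0.58. Standard errors cover the fit of the authors and not doubt about the assignment of reads: 9 members share exon bases with another coding gene, and 3 have a close copy.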

How the data were processed

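Total RNA of 8 samples (4 KO, 4 WT) was sequenced. Tools named in the submitters' processing notes are STAR 2.7, DESeq2 1.30.1 and CASAVA 1.8, with the build GRCm38 and no roles. For the counting of reads, its annotation and its use of strand, the sources used here give nothing. Per the file headers, the authors deposited for each gene the mean normalized count (a signal over all samples), the log2 fold change, its standard error and Wald statistic (both scores), and the p-value, raw and adjusted. Fold change over standard error gave the statistic to within 1.5e-07.

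No test across samples was possible, so the planned count model was not run and the authors' deposited Wald p-values were used as given. Implied means, 95% intervals, counts and medians were computed with Python 3.11.15 (pandas 2.3.3, scipy 1.17.1). The implied-mean step and the name rule were tested on simulated data. Positions and transcript lengths came from GENCODE M21 (GRCm38), which held 69 of the 70 names. RefSeq promoters on chromosome 18, where Mc5r and Gpr17 lie, were left out, and 53 members had a promoter among the rest. Members and lists were chosen with earlier results of these data known. Full statistics were given in each role group for up to 4 members with the smallest adjusted p and for the largest change each way, and for up to 4 genes of each pathway list. Ligand genes of listed receptors, markers and neighbouring members were named after their values were seen. Alternatives were stricter limits on adjusted p, mean count, interval and fold, and leaving out members by position or kind.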

Additional observations from a re-analysis of the deposited data

How the results depend on the processing

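No paired analysis was possible because the deposited table holds no values per sample; for the same reason DESeq2 and leaving out each replicate were not run. Every alternative here is a stricter limit or a shorter member list applied to the same deposited values. Lower counts therefore follow from its construction, and no direction of a member could change. At an adjusted p of at most 0.001 the lower members numbered 14 against 25, those lower by at least 2-fold 7 against 14, the other signalling genes lower 11 against 18, and the members' median log2 fold change was 1.36 against 1.02. At a mean count of at least 100 there were 27 higher and 16 lower members, with 18 and 6 changed at least 2-fold. With the interval wholly beyond 0.58, 11 lower members remained, with a median of 1.66 over members of both directions, and 17 higher and 6 lower signalling genes. At log2 fold changes of at least 1 in either direction there were 14 lower members, a median of 1.54, and 18 higher and 10 lower signalling genes; at least 1.5 left 8 of the lower members. Without members whose gene body overlaps another gene, and without Gpr31c, which the annotation lacks, 25 were higher and 14 lower. A further list held 17 members picked as known from macrophages. It was drawn up with the values seen, holds only higher members and may miss others found in these cells. Leaving out its members gave 28 higher and 25 lower, a fall that the choice itself fixes. Under all limits together 21 members passed, 16 higher and 5 lower. Depth per library is unknown, so no limit of detection could be given.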
